A study of Mus musculus with 12 samples.

Results

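Ceramidases and the enzymes around them set how much ceramide, sphingosine and sphingosine-1-phosphate a cell holds, and 10 genes of this system were followed in mouse striatum after repeated morphine with or without sodium butyrate. The genes are Acer2, Acer3, Asah1 and Asah2 (ceramidases), Sphk1 and Sphk2 (sphingosine kinases), Sgpl1 (the lyase that degrades sphingosine-1-phosphate), Sgms1 and Ugcg (which convert ceramide to sphingomyelin and glucosylceramide) and the receptor gene S1pr1. They were found by gene symbol and matched 11 probe sets, of 21780 probe sets with exactly 1 gene symbol. These probe sets stand for 19935 genes. The 10 genes were chosen by function and by group differences of these same arrays, which were already known, that of Acer2 above all. Their differences are therefore given as a description, and the calls and p-values of these genes support nothing by themselves.

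Of the 10 genes, Acer2 alone passed the threshold used below, and did so in 1 comparison, butyrate-morphine against saline. By probe set 10505779 it stood 0.72 ± 0.029 on the log2 scale above saline in the butyrate-morphine group (SD, n = 3 arrays), a 1.65-fold difference. In the morphine group this probe set stood at 0.20 ± 0.16, or 1.15-fold. A second Acer2 probe set, 10505788, differed by 0.053 and 0.021 in these groups and did not pass. The other 9 genes differed from saline by -0.099 to 0.087 after morphine and by -0.092 to 0.18 after butyrate and morphine.

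The arrays were Affymetrix Mouse Gene 1.0 ST, each hybridised with striatal RNA pooled from 4 male Swiss-Albino mice aged 2 months. Sodium butyrate inhibits histone deacetylases, and the labels describe a locomotor sensitization protocol with an induction and a challenge phase. The saline group (6 arrays) received vehicle in place of both drugs in 6 trials held every other day. The morphine group (3 arrays) received vehicle and then morphine at 20 mg/kg, and the butyrate-morphine group (3 arrays) received sodium butyrate at 300 mg/kg and then morphine at 20 mg/kg. The challenge injection came 7 days after the last induction day, and the striatum was collected for RNA 1 h later. Both drug groups were challenged with morphine. For the saline group the labels disagree, the source names giving saline and the protocol text morphine. A difference from saline therefore holds the repeated injections alone or the repeated and the last injection together. No group received butyrate without morphine, so butyrate was seen only on top of morphine. The labels do not say whether the pools are independent cohorts, so the p-values below cover the spread among pools, which may be partly technical.

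Ceramide is the branch point of sphingolipid metabolism. Ceramidases cut it into sphingosine and a fatty acid, sphingosine kinases phosphorylate the sphingosine, and the product acts inside the cell or, once exported, on G protein-coupled receptors. In brain the same lipids build myelin and neuronal membranes, and the receptor encoded by S1pr1 is known from astrocytes and endothelium. Arrays of this kind measure RNA, not lipids or enzyme activity. In pooled tissue RNA, fewer cells of a type and less RNA per cell cannot be told apart.

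The deposited values are differences from a baseline on a log scale whose base is not stated and was read as log2, so the level of each gene was removed and genes cannot be ranked by level or the tissue checked by its markers. Saline arrays 1 and 2, 3 and 4, and 5 and 6 are mirror images that sum to 0 within 1e-06 in every row. The saline mean is therefore 0 for every gene, and the 6 saline arrays carry 3 independent values. Values centred within a pair spread less than uncentred ones. The saline ranges below are therefore narrow, and drug arrays fall outside them more easily. Which saline arrays form the baseline of a morphine array is unknown. Array medians over the 21780 probe sets lay between -0.015 and 0.014, and precision is limited by how few arrays there are.

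RefSeq promoter windows (assembly GRCm38.p6) held 8 of the 10 genes, all but Asah1 and S1pr1. The stretch upstream of Acer2 is shown because this gene carries the largest difference. Beside it are those of Sgpp1 and Mfsd2a, from a wider list described further on. Both passed as higher in the same group, a call that for Sgpp1 depended on single arrays. Each is written 5′ to 3′ on the strand of the gene, and ends before the first annotated base of the gene. For Acer2 it is chr4:86874164-86874347 (plus strand), for Sgpp1 chr12:75735730-75735979 (minus strand) and for Mfsd2a chr4:122961195-122961438 (minus strand). Capitals mark GC boxes in Acer2 and a TGTTCT in Sgpp1.
Acer2: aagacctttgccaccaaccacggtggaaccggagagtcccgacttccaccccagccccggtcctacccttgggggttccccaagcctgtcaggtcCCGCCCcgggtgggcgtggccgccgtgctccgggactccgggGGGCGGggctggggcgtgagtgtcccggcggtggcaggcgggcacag
Sgpp1: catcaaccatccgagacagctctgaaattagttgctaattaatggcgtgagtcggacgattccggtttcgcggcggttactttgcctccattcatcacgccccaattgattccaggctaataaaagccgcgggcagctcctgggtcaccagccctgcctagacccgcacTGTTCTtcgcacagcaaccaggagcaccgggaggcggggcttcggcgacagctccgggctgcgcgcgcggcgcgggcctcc
Mfsd2a: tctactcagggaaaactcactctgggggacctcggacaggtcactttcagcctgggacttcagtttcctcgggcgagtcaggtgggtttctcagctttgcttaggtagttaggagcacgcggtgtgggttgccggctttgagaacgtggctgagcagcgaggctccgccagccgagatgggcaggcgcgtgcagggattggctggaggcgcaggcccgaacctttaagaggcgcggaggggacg

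The windows of 300 bases (250 before and 50 after the start) were searched on both strands for 3 motifs. The first, AGAACA, is the core of glucocorticoid response elements and reads TGTTCT when it lies on the other strand. The next, TGACG, is the core of the cyclic AMP element and reads CGTCA there. The last is the E-box CACGTG, which reads the same on both strands. The Acer2 window held 0 of them. It is rich in G and C, at 73.0% against a median of 52.7% over 32851 windows of all genes. It holds 31 CpG dinucleotides and 2 GC boxes, the letters GGGCGG or, on the other strand, the letters CCGCCC, at positions -155 and -113. Positions are counted from the start site on which each window is built, which for Acer2 lies downstream of the end of the printed stretch. The GC box was searched after the sequence had been seen, and 35.7% of all windows hold one. Windows of Acer3, Sphk2, Sgpl1, Sgms1 and Ugcg hold GC boxes too. Those of Sgpl1 and Ugcg are richer in G and C than that of Acer2, at 75.3% and 81.3%. AGAACA was present in 19.0% of all windows, TGACG in 20.8% and CACGTG in 7.15%. Sgpp1 held 1 TGTTCT, at position -81, and Mfsd2a none of the motifs. Asah2 held 2 TGTTCT, Sphk2 held the cyclic AMP core at 2 places of 1 window, the second of them on both strands with the matches overlapping, Sgms1 held 1, some windows of Sphk1 held that core or the E-box, and Acer3 had 1 AGAACA and 1 TGACG in separate windows. A match is a run of letters, and no binding was measured here.

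Of the set, the alkaline ceramidases Acer2, by 1 probe set, and Acer3 had the largest differences with butyrate and morphine. Acer2 encodes the alkaline ceramidase of the Golgi apparatus. Its probe set of larger difference (10505779) lay between -0.093 and 0.093 in the 6 saline arrays, with a median of 0. The morphine arrays read 0.10, 0.38 and 0.12, and the butyrate-morphine arrays 0.69, 0.74 and 0.73, as log2 differences from the saline baseline. All 6 drug arrays were above every saline array, and all 3 butyrate-morphine arrays were above every morphine array. The morphine group was uneven, with array 2 well above arrays 1 and 3, whereas the butyrate-morphine arrays lay close together.

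**Figure D1:**
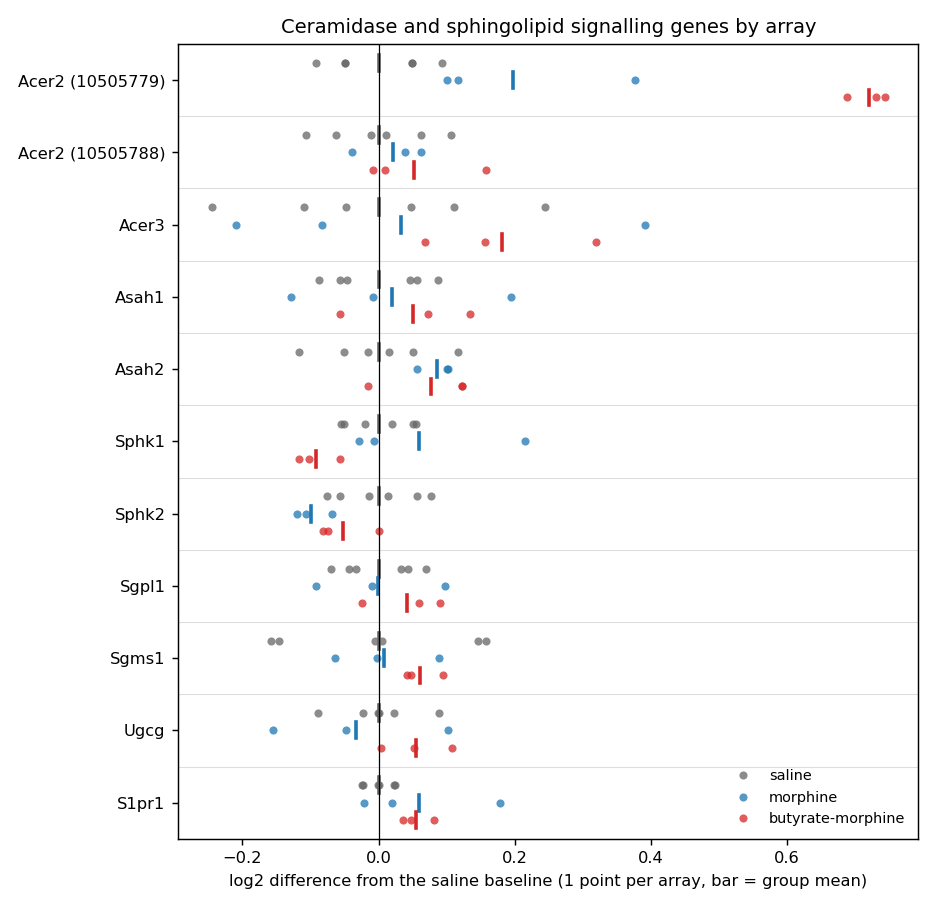
Each row is a probe set of the 10 genes, the x axis is the log2 difference from the saline baseline, points are arrays coloured by group and bars are group means. Acer2 (10505779) is the row in which the groups separate, with butyrate-morphine arrays at 0.69 to 0.74, morphine arrays at 0.10 to 0.38 and saline arrays between -0.093 and 0.093.

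In the limma fit over all probe sets, with Benjamini-Hochberg adjustment and a threshold of 0.05, Acer2 passed against saline in the butyrate-morphine group (95% interval 0.59 to 0.85, adjusted p = 3.72e-05). It stood at rank 14 by p and rank 20 by size of rise among the 21780 probe sets. In the morphine group it did not pass (0.068 to 0.33, adjusted p = 0.113), and without morphine array 2 the difference was 0.11. A second Acer2 probe set (10505788), annotated to 1 transcript record only, did not show the difference. It read 0.039, 0.062 and -0.039 in the morphine arrays and 0.16, -0.0087 and 0.0091 in the butyrate-morphine arrays, against -0.11 to 0.11 in saline. Its group differences of 0.021 and 0.053 did not pass. The mean of both probe sets put the butyrate-morphine group 0.39 above saline, which passed as well. That mean is carried by the first probe set, so it adds no separate evidence.

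Acer3 encodes the alkaline ceramidase that acts on unsaturated ceramides. It had the widest spread of the 10 genes, from -0.24 to 0.24 in saline, with morphine arrays at -0.21, -0.083 and 0.39 and butyrate-morphine arrays at 0.32, 0.16 and 0.069. The groups overlapped, and the butyrate-morphine difference of 0.18 had an interval from -0.088 to 0.45. A difference of the size seen for Acer2 in the morphine group cannot be told from 0 at this spread. Acer1, a further alkaline ceramidase from the wider list described below, went the other way. It was at -0.086 after morphine and at -0.10 with butyrate and morphine, with every drug array below saline. Neither difference passed (adjusted p = 0.192 and 0.117).

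The acid and neutral ceramidases lay close to saline. Asah1, the lysosomal acid ceramidase that is deficient in Farber disease, read -0.0078, -0.13 and 0.19 in the morphine arrays and 0.072, 0.13 and -0.056 in the butyrate-morphine arrays, against -0.087 to 0.087 in saline. Asah2, the neutral ceramidase of the cell surface, read 0.057, 0.10 and 0.10 after morphine and 0.12, 0.12 and -0.015 after butyrate and morphine, against -0.12 to 0.12 in saline. Both genes overlapped saline in each group, with differences of 0.019 and 0.050 for Asah1 and of 0.087 and 0.077 for Asah2.

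The sphingosine kinases held the lowest differences of the set, Sphk2 after morphine and Sphk1 with butyrate and morphine. Sphk1, the kinase of the cytosol and plasma membrane, lay between -0.055 and 0.055 in saline. It read -0.029, 0.21 and -0.0060 in the morphine arrays and -0.057, -0.10 and -0.12 in the butyrate-morphine arrays. Every butyrate-morphine array was below every saline and every morphine array, the first of them by a narrow margin. The difference of -0.092 from saline did not pass (adjusted p = 0.391). Sphk2, the kinase found in the nucleus and mitochondria, read -0.12, -0.11 and -0.069 after morphine and -0.074, -0.081 and 0.00030 after butyrate and morphine, against -0.076 to 0.076 in saline. Its morphine difference was -0.099 (interval -0.18 to -0.013), which did not pass either (adjusted p = 0.243), and its arrays overlapped saline in both groups.

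Sgpl1, whose product cleaves sphingosine-1-phosphate irreversibly in the endoplasmic reticulum, differed from saline by -0.0015 and 0.042. Its morphine arrays spread from -0.092 to 0.097 and its saline arrays from -0.070 to 0.070. Over all probe sets the SD was 0.112 to 0.151 in the drug arrays and 0.052 to 0.0845 in the mirrored saline arrays. These are not like measures, since mirrored saline values hold only the difference within a pair. The drug arrays also hold any group difference. S1pr1 varied least in saline, between -0.024 and 0.024. It read -0.022, 0.019 and 0.18 in the morphine arrays and 0.036, 0.082 and 0.047 in the butyrate-morphine arrays. All 3 butyrate-morphine arrays were above saline, by little, and the difference of 0.055 did not pass (adjusted p = 0.539).

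The enzymes that draw on ceramide did not differ beyond their spread. Sgms1, the sphingomyelin synthase of the Golgi, read -0.0023, -0.064 and 0.089 after morphine and 0.042, 0.095 and 0.047 after butyrate and morphine. All of these lay inside its saline range of -0.16 to 0.16. Ugcg, which starts the glycosphingolipids, read -0.048, -0.15 and 0.10 after morphine and 0.052, 0.11 and 0.0029 after butyrate and morphine, against -0.089 to 0.089 in saline. Morphine array 3 was the highest of the 3 morphine arrays for Acer3, Asah1, Sgms1, Ugcg and S1pr1.

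**Figure D2:**
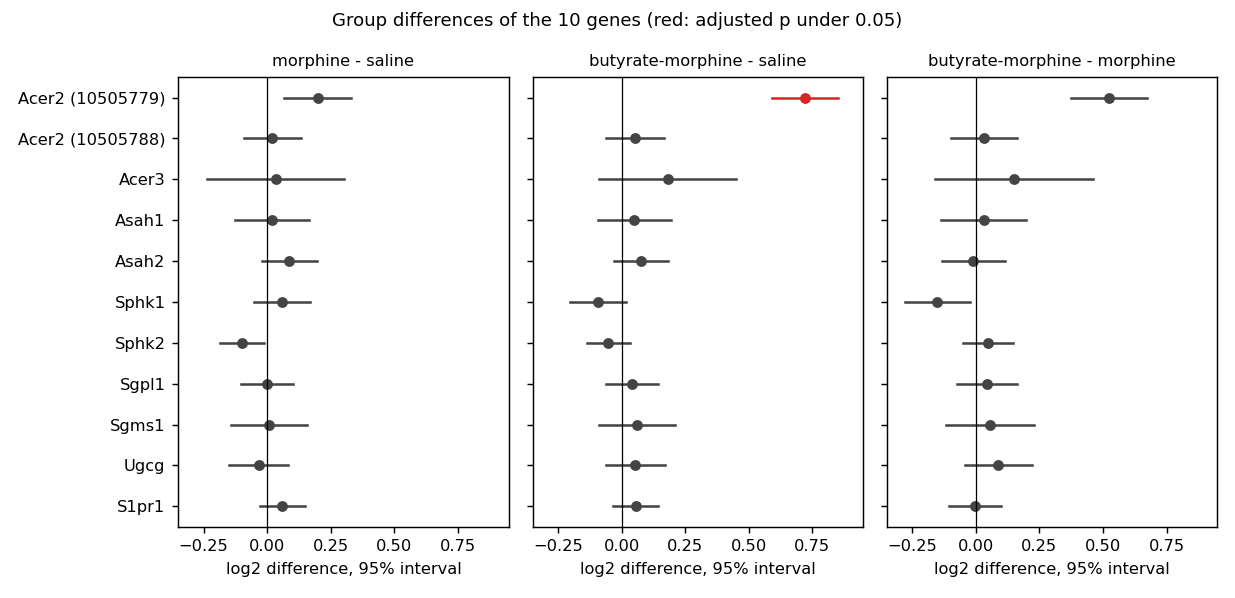
The 3 panels show, for each probe set of the 10 genes, the log2 difference of morphine from saline, of butyrate-morphine from saline and of butyrate-morphine from morphine (x axis), with the 95% interval as a bar. Red marks an adjusted p under 0.05, which is reached once, by Acer2 (10505779) at 0.72 in the second panel.

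Counted over the set, 0 of 10 genes passed for morphine against saline, where 534 of 21780 probe sets passed over the whole array (2.45%). For butyrate-morphine against saline, Acer2 was the 1 of 10 that passed, beside 512 probe sets overall (2.35%). This fit counts each saline array, although they are mirrored. In a further fit each mirrored pair counted once in the residual degrees of freedom. All saline arrays still entered the group mean, so only the estimate of spread was corrected. Then 146 and 171 probe sets passed in the same comparisons. Of the 10 genes Acer2 alone passed again, with butyrate and morphine (adjusted p = 0.00045). Of the 11 probe sets, 8 (72.7%) and 9 (81.8%) had values above saline, beside 48.0% and 54.0% of all probe sets. Their median differences were 0.021 and 0.055, against -0.0033 and 0.0071 over all probe sets. The arrays of the groups did not overlap for 1 and 3 of the 11, beside 8.09% and 11.8% of all probe sets. Both comparisons use the same saline arrays. The intervals of the other 9 genes reached from -0.24 to 0.30 and from -0.20 to 0.45, the upper ends set by Acer3. Without Acer3 the upper ends were 0.19 and 0.21, so larger rises lie outside the intervals of the other 8 genes.

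Butyrate-morphine against morphine asks what butyrate added. Acer2 (10505779) was 0.52 higher with butyrate (1.44-fold, interval 0.37 to 0.67), the lowest p of all 21780 probe sets and the second rank by rise. Over that many probe sets limma gave it an adjusted p of 0.101, so it did not pass. The other Acer2 probe set (10505788) differed by 0.032, with overlapping arrays. In this comparison 0 probe sets passed (0%), while 1898 had an unadjusted p under 0.05. Without morphine array 1 Acer2 passed (0.47, adjusted p = 0.0424), and without morphine array 2, the highest of its group, it passed with 0.61 (adjusted p = 0.00283). With limma's array weights it passed too (adjusted p = 0.0282), and under the other 25 alternatives it did not, with adjusted p up to 1.

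Sphk1 was the other member whose arrays did not overlap between the drug groups. It was 0.15 lower with butyrate (difference -0.15, interval -0.28 to -0.024, adjusted p = 0.488). Morphine array 2 stood apart at 0.21, and with 1 array left out the difference ranged from -0.20 to -0.074. Acer2 and Sphk1 made 2 of 11 probe sets without overlap, beside 10.8% of all probe sets. The other 8 genes differed by -0.0096 to 0.15, with the largest value in Acer3, whose arrays overlapped. The median over the 11 probe sets was 0.043, against 0.011 over all.

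Other genes of sphingolipid metabolism and of the handling of sphingosine-1-phosphate were taken from a list of 68, of which 65 were measured, each by 1 probe set. For morphine against saline 2 rose (Plpp1 and Mfsd2a) and 1 fell (Gltp), with a median of 0.0061. For butyrate-morphine against saline 4 rose (Sgpp1, Plpp1, Spns2 and Mfsd2a) and 0 fell, with a median of 0.027. These are 4.62% and 6.15% of the 65 genes, beside 2.45% and 2.35% of all probe sets. The list was drawn up with earlier results of these data known, so these shares are a description and cannot show enrichment. For butyrate-morphine against morphine limma called 0, with 7 at an unadjusted p under 0.05 and a median of 0.010. The 4 genes that rose belong to the 14 listed for sphingosine and sphingosine-1-phosphate, whose medians were 0.026 and 0.0030. With each mirrored saline pair counted once in the degrees of freedom, Mfsd2a was the 1 gene of the 65 that passed in either comparison. The calls of Gltp, Sgpp1, Plpp1 and Spns2 ended (adjusted p from 0.0854 to 0.161).

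Mfsd2a is a lysophospholipid transporter of the blood-brain barrier, listed here because its relative Mfsd2b exports sphingosine-1-phosphate. It read 0.56, 0.36 and 0.25 in the morphine arrays and 0.44, 0.52 and 0.46 in the butyrate-morphine arrays, against -0.059 to 0.059 in saline. All 6 drug arrays were above saline. It rose by 0.39 (adjusted p = 0.00298) and by 0.47 (adjusted p = 0.000546), and passed in both comparisons whichever of the 12 arrays was left out. Of the 16 other alternatives, the rise after morphine missed the threshold under 3, with adjusted p of 0.0529 (quantile normalization), 0.0704 (saline arrays 1 to 3 only) and 0.191 (replicate number as a block). The rise with butyrate and morphine missed it under the last of these (adjusted p = 0.109).

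Spns2, the sphingosine-1-phosphate exporter known from endothelium, read 0.26, 0.19 and 0.22 after morphine and 0.17, 0.42 and 0.27 after butyrate and morphine, against -0.096 to 0.096 in saline. It rose by 0.29 in the butyrate-morphine group (adjusted p = 0.0217). Its difference of 0.22 in the morphine group did not pass (adjusted p = 0.0635), although all 6 drug arrays were above saline. The rise was lost without saline array 1 or butyrate-morphine arrays 2 or 3, with adjusted p up to 0.108.

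Sgpp1 encodes the phosphatase that returns sphingosine-1-phosphate to sphingosine in the endoplasmic reticulum. It read 0.0034, 0.093 and 0.20 after morphine and 0.29, 0.39 and 0.18 after butyrate and morphine, against -0.11 to 0.11 in saline. It rose by 0.29 with butyrate and morphine (adjusted p = 0.0372) and was at 0.099 after morphine (adjusted p = 0.514). The butyrate-morphine and morphine arrays overlapped, and the difference of 0.19 between them did not pass (adjusted p = 0.504). Leaving out saline array 1, 2, 4 or 5, or array 1 or 2 of the butyrate-morphine group, ended the call, with adjusted p up to 0.170.

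Plpp1, a phosphatase of lysophosphatidic acid and related lipid phosphates at the cell surface, read 0.18, 0.11 and 0.31 after morphine and 0.23, 0.25 and 0.15 after butyrate and morphine, against -0.061 to 0.061 in saline. It rose by 0.20 (adjusted p = 0.0494) and by 0.21 (adjusted p = 0.0397). Leaving out each of the 12 arrays in turn kept the first call once (without morphine array 2) and the second in 3 fits (those without a morphine array), with adjusted p up to 0.204 and 0.155.

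Gltp, a cytosolic carrier of glycolipids, was the 1 gene that fell. It read -0.28, -0.18 and -0.19 after morphine and 0.073, 0.083 and 0.021 after butyrate and morphine, against -0.14 to 0.14 in saline. The morphine arrays were below every other array. The fall of 0.21 (difference -0.21, adjusted p = 0.0455) was kept in 1 of 12 fits with an array left out, the one without saline array 3, with adjusted p up to 0.110 in the others. Between the drug groups Gltp was 0.27 higher with butyrate, which did not pass (adjusted p = 0.254).

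**Figure D3:**
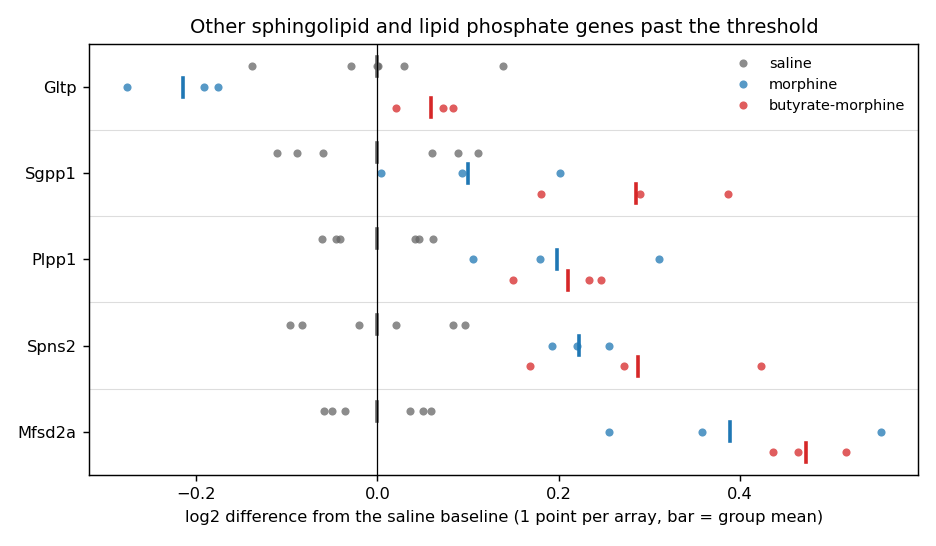
Rows are the 5 genes of the wider sphingolipid and lipid phosphate list that passed the threshold in any comparison. The x axis is the log2 difference from the saline baseline, points are arrays by group and bars are group means. Mfsd2a lies above saline in all 6 drug arrays (0.25 to 0.56), and Gltp is below saline in the morphine arrays (-0.28 to -0.18).

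The remaining groups of the list had 0 calls in each comparison. Of 16 genes of de novo synthesis, the dihydroceramide desaturase Degs2 was at -0.21 after morphine (adjusted p = 0.0764) and at 0.017 with butyrate. Its relative Degs1 was at 0.10 and 0.19 (adjusted p = 0.367 and 0.0818). Of 14 genes of galactosphingolipids and lysosomal breakdown, Hexa, a beta-hexosaminidase subunit, was at -0.11 and -0.082, and the lysosomal beta-galactosidase Glb1 at 0.050 and -0.075. Of 9 ganglioside genes, the sialyltransferase St8sia3 was at -0.13 and -0.14 (adjusted p = 0.105 and 0.0648), and B4galnt1, which makes complex gangliosides, at -0.19 and -0.011. The 12 genes of sphingomyelin turnover and ceramide transport held the fall of Gltp after morphine and no other call.

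The count of these other genes changed with single arrays. For morphine against saline it was 1 in place of 3 when saline array 1, 2, 4, 5 or 6 was left out, or array 3 of either drug group, and 5 without morphine array 1. For butyrate-morphine against saline it was 1 or 2 in place of 4 without saline arrays 1, 2, 4 or 5 or any butyrate-morphine array. Leaving out 1 saline array keeps its mirror image and moves the saline mean off 0. The background moved as well, with 219 to 1092 probe sets called for morphine and 206 to 807 for butyrate-morphine over these 12 fits.

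The probe sets most like Acer2 over the 12 arrays were found by Pearson correlation, as a description. Mt2, a metallothionein, had r = 0.947. It read 0.081, 0.39 and 0.14 in the morphine arrays and 0.41, 0.38 and 0.37 in the butyrate-morphine arrays. Morphine array 2 was the highest morphine array for Acer2 and for all 5 probe sets, which were selected by their correlation with Acer2. Both probe sets of Rbm3, a cold-inducible RNA-binding protein, were among the 5 (r = 0.935 and 0.932). The first read 0.020, 0.20 and 0.14 after morphine and 0.56, 0.39 and 0.57 after butyrate and morphine. Wdr11 (r = 0.939) differed from saline by 0.037 and 0.20, and Ppp1r3a, a glycogen-targeting phosphatase subunit (r = 0.932), by 0.060 and 0.17. The points share their groups and the mirrored saline pairs. Over the 6 drug arrays alone, which still hold the difference between the drug groups, r was 0.881 for Mt2 and 0.927 for the first Rbm3 probe set. Over the saline arrays, with 3 independent values, r was 0.894 and 0.948 for Mt2 and Wdr11, but 0.091 and 0.29 for the Rbm3 probe sets and -0.078 for Ppp1r3a.

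**Figure D4:**
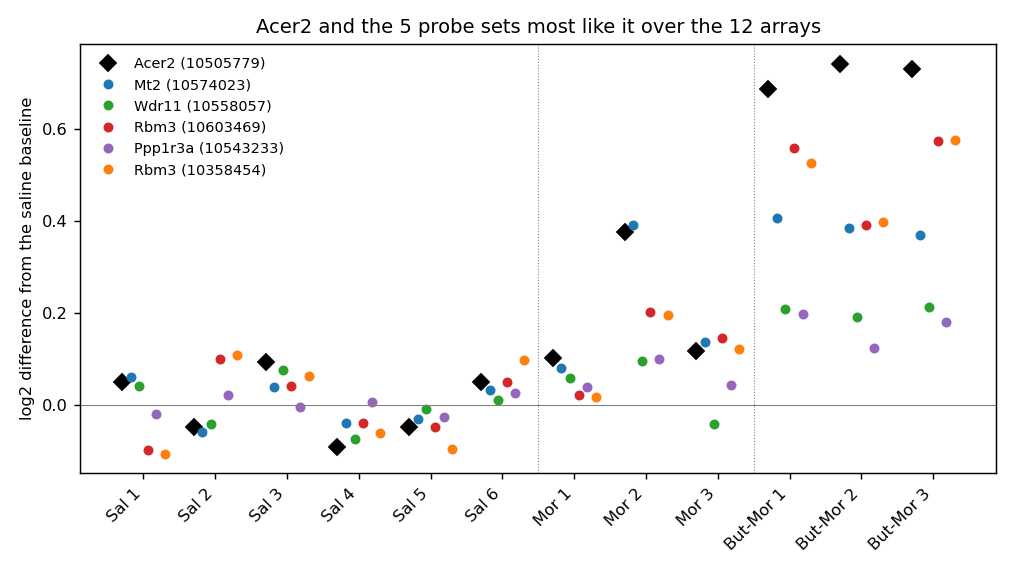
The y axis is the log2 difference from the saline baseline and the x axis the 12 arrays, with black diamonds for Acer2 and coloured points for the 5 probe sets of highest Pearson r. Morphine array 2 is the highest morphine array for all 6 probe sets, among them Acer2 (0.38) and Mt2 (0.39). All 6 have a higher mean in the butyrate-morphine arrays than in the morphine arrays.

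Markers of other cell types moved between the same groups. Choroid plexus markers rose, 9 of 9 after morphine (median 0.96) and 7 of 9 with butyrate (median 0.75). Their mean was 1.38, 1.43 and 1.19 in the morphine arrays and 1.15, 0.87 and 1.16 in the butyrate-morphine arrays, against -0.13 to 0.13 in saline. It was thus lower in every butyrate-morphine array than in every morphine array, where Acer2 was the higher in butyrate-morphine. Their part in the Acer2 difference was not tested.

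Of 8 endothelial markers 4 fell in both drug groups (Kdr, Cldn5, Tek and Flt1). The mean of the list was -0.33 to -0.25 in morphine and -0.26 to -0.16 in butyrate-morphine arrays, against -0.052 to 0.052 in saline, while Mfsd2a and Spns2 were above saline. Of 8 microglial markers 3 fell after morphine and 2 with butyrate, and of 8 astrocyte markers Gjb6 rose in both. Of 5 pericyte markers Rgs5 fell after morphine, and of 6 markers of striatal projection neurons Drd2 fell after morphine. Of 6 meningeal markers Igf2 rose in both groups, and of 6 thalamic and septal markers 3 rose after morphine and 0 with butyrate. Among 7 oligodendrocyte and 5 cortical neuron markers 0 were called. All 6 striatal projection neuron markers were below saline after morphine (median -0.13), and 2 were above it with butyrate. These 6 (median 0.12) and the 7 oligodendrocyte markers (median 0.10) were all higher in butyrate-morphine than in morphine, beside 57.0% of all probe sets. None of these differences between the drug groups passed. The cortical list was uneven, with means of 0.087, -0.79 and -0.35 in the morphine arrays and of -0.12, 0.13 and -0.018 in the butyrate-morphine arrays, against -0.053 to 0.053 in saline. Its median difference after morphine was -0.41, and all 5 markers were higher in butyrate-morphine than in morphine (median 0.38), with 0 past the threshold and 3 at an unadjusted p under 0.05. Morphine array 2, the highest morphine array for Acer2 and Sphk1, was the lowest for this list. The part of these shifts in the differences of single sphingolipid genes was not tested.

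**Figure D5:**
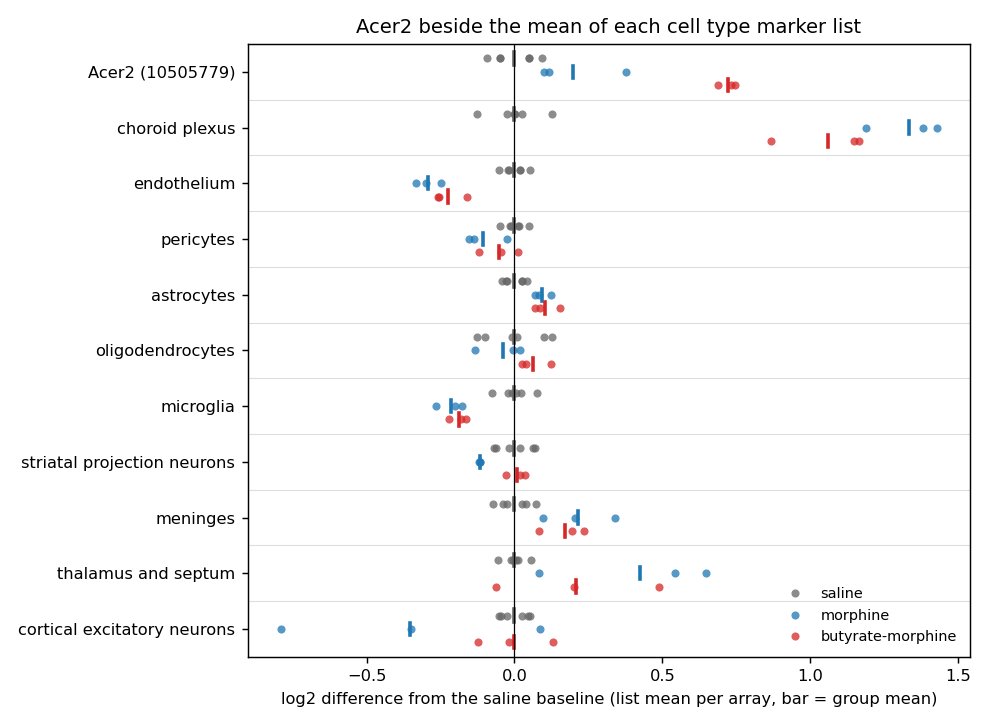
Rows are Acer2 and the mean of each of 10 marker lists, the x axis is the log2 difference from the saline baseline, points are arrays by group and bars are group means. Choroid plexus markers are highest in the morphine arrays (1.19 to 1.43) and Acer2 in the butyrate-morphine arrays (0.69 to 0.74).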

How the data were processed

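Values came from 1 table of 28815 rows by 12 arrays, which the authors deposited as log values relative to a baseline, taken here as log2. The labels name no background correction, normalization, log base or baseline arrays. Gene symbols came from the platform annotation table: 21780 rows had 1 gene symbol and were tested, 1605 had several and 5430 none. Groups came from the sample titles. Values were used as deposited in limma 3.58.1 (R 4.3.3, lmFit and eBayes, 3 group means, 12 arrays), with Benjamini-Hochberg adjustment over all tested rows and a threshold of 0.05. Residual and prior degrees of freedom were 9 and 3.87. The procedure was tested on simulated data.

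The members, the gene and marker lists and the alternatives were chosen with earlier results of these data known. Named were all members, each other sphingolipid gene past the threshold, the 2 of lowest p in a group with none, and the 5 probe sets most like Acer2. Acer1 was named as well, as a relative of Acer2 and Acer3. Of the 68 listed sphingolipid genes 3, and of the marker genes 5, were not analysed here. Alternatives were other normalizations, variance models, row sets, thresholds, subsets of saline arrays, the replicate number as a block, and each array left out. Leaving out a mirrored saline pair was added after the data were seen. Promoter sequences are RefSeq's (GRCm38.p6). Array replicate numbers were not used to pair the arrays in the main fit. Same-numbered arrays of different groups correlated at -0.27 to 0.20 after removing group means, with 1 of 9 pairs over 0.1. Of the pairs with unlike numbers, 10 of 36 were over 0.1. Correlations with a saline array change sign with its mirror image, so they cannot show whether the numbers pair the arrays.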

Additional observations from a re-analysis of the deposited data

How the results depend on the processing

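Acer2 (10505779) passed for butyrate-morphine against saline under all 28 alternatives run (0.39 to 0.75, adjusted p 4.75e-06 to 0.0283) and for morphine against saline under none (adjusted p 0.0548 to 0.589). The value of 0.39 is the mean of both Acer2 probe sets. The count of members called stayed at 0 for morphine and 1 for butyrate-morphine against saline throughout. For butyrate-morphine against morphine it was 0, but 1 with array weights, and 0 to 1 with 1 array left out.

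The other sphingolipid genes called for morphine against saline numbered 3. They numbered 0 with quantile normalization and with saline arrays 1 to 3 only, 1 with trend and robust, mirror pairs counted once, all rows, adjusted p under 0.01, saline arrays 4 to 6 only, or without saline arrays 1 and 2 or 5 and 6, and 6 at adjusted p under 0.1. With 1 array left out they numbered 1 to 5. For butyrate-morphine against saline they numbered 4. They numbered 1 with quantile normalization, trend and robust, mirror pairs counted once, adjusted p under 0.01, saline arrays 1 to 3 or 4 to 6 only, or with any 1 mirror pair left out, and 1 to 5 with 1 array left out. Some of these fits hold fewer arrays, and the causes of the changed counts were not tested.

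With the replicate number as a block, other sphingolipid genes called numbered 0 against saline in both drug groups, and all probe sets called fell to 49 and 38. Mfsd2a then had adjusted p of 0.191 and 0.109. Whether these numbers pair the arrays is not settled by the correlations given above. Saline arrays 4 to 6 share their numbers with no drug array, so this fit also sets them aside: its Acer2 differences (0.17 and 0.69) equal those with saline arrays 1 to 3 only, which by itself left 92 and 95 probe sets called. Counting mirror pairs once in the degrees of freedom left 146 and 171. Quantile normalization forces centred arrays of unequal spread to 1 distribution. It left 70 and 97 probe sets called, the first split 56 higher and 14 lower in place of 284 and 250. Butyrate-morphine against morphine had 0 to 27 over all alternatives.

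The 3 arrays a drug group and 3 independent saline values limit what small differences can be seen, and centring removed signal over background.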
